A study of Mus musculus with 18 samples.

Results

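The 2 libraries made after 5 days of daily dosing, 1 from hippocampus and 1 from cortex, were compared with the 4 libraries made after 3 and 7 days, to ask what stood apart at the middle time in both tissues. The members were chosen by the file of each library, and they are 6 of the 18 libraries of the series. All 6 came from male C57BL/6 mice, 7 weeks old at the start, that received urban particulate matter (UPM, the standard reference material SRM 1648a) in PBS through the nose once a day. The groups are therefore UPM for 3, 5 or 7 days, and no vehicle library enters the comparison. The 12 libraries outside it are the PBS controls and mice dosed 2 times a week for 3 to 20 weeks, and they serve as background levels. The PBS libraries and those of 8 to 20 weeks carry another style of header than those of 3 days to 3 weeks. Malat1, a long noncoding RNA, had 89715 counts in the PBS hippocampus. At 3, 5 and 7 days it had 10463, 14104 and 13653 there, and 13483 at 3 weeks. Levels set against the PBS and 8- to 20-week libraries thus also carry this difference, whose cause was not tested. Each library holds the pooled RNA of its group's animals, and there is 1 library per tissue and time. Libraries of different times thus stand in for replicates, and p-values measure the spread between these libraries, not that between mice. Whether both tissues of a time came from the same mice is not given in the sources used here. Day, age, total dose and the making of each pair of libraries cannot be told apart. Total counts were 5.43 to 8.97 M per library, and 14643 to 16225 genes were detected. The tissue labels were checked with Dsp, Fibcd1 and C1ql2, genes of hippocampal granule and pyramidal cells. They had 150 to 374, 263 to 392 and 548 to 706 counts in the 3 hippocampus libraries. In the cortex libraries they had 0 to 11, 6 to 77 and 0 to 58. Their whole list of 26 genes differed less, with sums of 1281 to 1701 CPM (defined below) in hippocampus and 601 to 728 CPM in cortex. Grik4 of this list overlapped, with 45 to 189 and 43 to 139 counts. A list of 26 cortical neuron genes summed to 2435 to 3175 CPM in hippocampus and 4086 to 4775 CPM in cortex.

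Lipocalins are small secreted proteins that bind hydrophobic molecules in a cup-shaped fold. The odorant-binding proteins are a branch of this family made by glands of the nasal lining, from where they are released into the nasal mucus. Lcn2 (lipocalin-2) is instead an iron-siderophore carrier of neutrophils and of inflamed tissue, where it limits bacterial growth. Because most libraries held 0 or 1 of their reads, these genes are given in counts. The bases before the start of 4 odorant-binding protein genes are shown because 2 pairs of neighbouring copies, 1 pair on chromosome 2 and 1 on chromosome X, were detected together at 5 days. Each run is the 250 bases before the start in RefSeq, build GRCm38.p6, read 5′ to 3′ on the strand of the gene, and capitals mark the letters TATAAA. The runs of Obp2a and Obp2b lie at chr2:25699824-25700073 and chr2:25736757-25737006 on the plus strand. Those of Gm14744 and 5430402E10Rik lie at chrX:77864508-77864757 on the plus strand and chrX:77925063-77925312 on the minus strand.
Obp2a: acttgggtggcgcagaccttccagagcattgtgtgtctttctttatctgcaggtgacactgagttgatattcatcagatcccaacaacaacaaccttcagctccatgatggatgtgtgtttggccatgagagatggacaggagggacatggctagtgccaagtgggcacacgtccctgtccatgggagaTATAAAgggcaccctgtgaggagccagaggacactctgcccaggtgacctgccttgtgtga
Obp2b: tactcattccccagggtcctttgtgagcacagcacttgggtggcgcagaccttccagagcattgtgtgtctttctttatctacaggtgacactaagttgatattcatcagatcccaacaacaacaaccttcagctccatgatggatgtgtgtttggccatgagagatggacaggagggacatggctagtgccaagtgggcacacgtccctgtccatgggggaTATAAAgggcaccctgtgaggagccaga
Gm14744: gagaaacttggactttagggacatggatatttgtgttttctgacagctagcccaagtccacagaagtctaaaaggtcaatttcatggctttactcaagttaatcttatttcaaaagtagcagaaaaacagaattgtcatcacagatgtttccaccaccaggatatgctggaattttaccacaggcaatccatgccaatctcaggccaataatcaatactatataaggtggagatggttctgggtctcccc
5430402E10Rik: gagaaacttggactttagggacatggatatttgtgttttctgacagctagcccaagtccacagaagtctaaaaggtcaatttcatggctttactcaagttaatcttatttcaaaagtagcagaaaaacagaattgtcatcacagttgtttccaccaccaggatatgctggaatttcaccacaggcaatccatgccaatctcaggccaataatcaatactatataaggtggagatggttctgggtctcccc

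The runs of Gm14744 and 5430402E10Rik were 99.2% identical over an alignment of 250 positions. Those of Obp2a and Obp2b were identical at 214 of 283 alignment positions (75.6%). The Obp2a and Obp2b runs are shifted against each other along a shared sequence, and the unpaired ends counted as not identical. The lower percentage thus reflects the RefSeq starts used and does not show that Obp2a and Obp2b differ more than the chromosome X pair. TATAAA began 61 bases before the RefSeq start of Obp2a and 28 bases before that of Obp2b. The GENCODE start of Obp2a, given below, lies inside its run, so these distances depend on the start used. The letters were in neither run of the chromosome X pair. Of 32851 promoters in the same table, 12.4% held TATAAA in these 250 bases on either strand, and 1.99% held it on the gene's strand 20 to 40 bases before the start. Obp1a, 5430401F13Rik and S100a8, described below, held it at 30, 27 and 30 bases before the start, and Gm14743 at 70 bases. Lcn11, Lcn2, S100a9, Lrg1, Six3, Rarb and Tac1, which were also searched, did not hold it. Only these exact letters were searched, and no other form of them. These matches are a description of letters and not of bound sites.

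At 5 days, 11 genes were higher than at 3 and 7 days over both tissues and none was lower (edgeR quasi-likelihood F test with Benjamini-Hochberg adjustment over 14676 genes, threshold 0.05). Among them were the odorant-binding protein genes Obp2a, Obp2b, Gm14744 and 5430402E10Rik, the inflammation genes Lcn2, S100a8 and Lrg1, and the forebrain genes Six3, Rarb and Tac1. These odorant-binding protein genes and Lcn2 had 0 or 1 counts over the 4 other libraries. They passed the filter on low counts only through the 5-day libraries where they were high, so for them the filter was not independent of the comparison. The 11 make up 0.075% of the genes tested. The share called lower was 0%, while at an unadjusted p under 0.05 there were 519 genes with a lower level (3.54%) and 386 with a higher one (2.63%). DESeq2 called 30 genes, 23 higher and 7 lower, 9 of the 11 among them. limma-voom called 9, all higher, 6 of the 11 among them. The median log2 fold change over all genes was −0.02.

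Obp2a encodes an odorant-binding protein and gave the smallest p. It lies on chromosome 2 at 25700043 to 25703326 (GENCODE M21, GRCm38). Obp2a had 202 counts in the hippocampus at 5 days and 0 at both 3 and 7 days. In the cortex it had 139 counts at 5 days, 1 at 3 days and 0 at 7 days. Both 5-day libraries were far above all 4 others, with no overlap. The summed level of the 5-day libraries was 761 times that of the others, with a 95% exact counting interval of 136 to 30100 (adjusted p = 9.92e-06 in edgeR). Outside the comparison, no library had more than 1 count. Over 19 alternative fits of edgeR, DESeq2 and limma, the log2 fold change of Obp2a was 7.85 to 11.01. These fits reuse the same 6 libraries or parts of them, 1 with the 3-week libraries added, so they are not separate evidence.

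Obp2b, a near copy of Obp2a, had 57 counts in the hippocampus and 49 in the cortex at 5 days and 0 in the 4 other libraries. With a floor of 3 counts over those 4 libraries it was at least 78.8-fold higher at 5 days (adjusted p = 0.0265 in edgeR). Lcn11, the lipocalin gene that follows on the same stretch, had 32 counts at 5 days in the hippocampus and 35 in the cortex. It had 1 count in the cortex at 3 days and 0 in the 3 other libraries, and did not pass (ratio 149, interval 25.9 to 5990, adjusted p = 0.127). These 3 genes were the ones above 3 counts in both 5-day libraries among 9 lipocalin genes of this locus in the files. The locus summed to 291 counts in the hippocampus and 224 in the cortex at 5 days, and to 2 counts over the 4 other libraries. Lcn3, Lcn5, Lcn6, Lcn8 and Lcn9, which lie between or beside them, had 0 counts in all 6 libraries. Bmyc, a gene of another family between Obp2a and Obp2b, had 225 counts in the hippocampus at 5 days against 219 and 341, and 345 in the cortex against 348 and 355.

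On chromosome X, Gm14744 and 5430402E10Rik are odorant-binding protein genes in opposite orientation. Gm14744 had 50 counts in the hippocampus and 55 in the cortex at 5 days, and 1 count in the cortex at 7 days. Its ratio was 234, with an interval of 41.1 to 9340 (adjusted p = 0.0138 in edgeR). 5430402E10Rik had 44 and 49 counts at 5 days and 0 in the 4 others, so it was at least 69.1-fold higher (adjusted p = 0.0436 in edgeR). Of the 75-base stretches of their transcripts, 45.9% and 46% occur in both, so reads of the pair may have been split between them and their counts are uncertain one by one. For Obp2a and Obp2b the shared parts were 8.36% and 8.51%. Obp1a, another odorant-binding protein gene of the locus, had 50 counts in the hippocampus at 5 days against 0 at 3 days and 6 at 7 days. In the cortex Obp1a had 51 counts at 5 days against 5 and 0, and the adjusted p was 0.279. Gm14743 had 34 counts in the hippocampus and 5 in the cortex at 5 days, and 2 counts in the others. The locus summed to 178 and 160 counts at 5 days and to 14 over the 4 other libraries. Pbsn and Gm5938 of the same locus had 0 counts in all 6. None of these 6 genes had a count in the 12 libraries outside the comparison.

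Of 18 genes of a list of nasal gland and lipocalin genes in the files, 7 passed the filter on low counts, mostly through the 5-day libraries alone, so their median is not given. The summed level of the list was 80.1 CPM (a library's counts scaled to a common total, by TMM for single genes and by total counts for sums of lists and for libraries outside the comparison) in the hippocampus and 50.5 CPM in the cortex at 5 days, and 0.815 to 3.08 CPM in the 4 others. At 0 counts in both 5-day libraries were 8 of the 18. Mup4, a major urinary protein gene, had 30 counts in the hippocampus at 5 days against 8 and 0, and 50 in the cortex against 2 and 0 (adjusted p = 0.521). Scgb3a1, a secretoglobin of airway epithelium, had 27 counts in the hippocampus against 0 and 0, and 18 in the cortex against 0 and 4 (adjusted p = 0.657). 5430401F13Rik on chromosome 6 had 43 counts in each 5-day library and 0 in the others. It was at least 63.9-fold higher and fell just outside the threshold (adjusted p = 0.0564). Bpifa1, a secreted protein of nasal and airway epithelium, had 2 and 1 counts at 5 days and 0 to 5 in the others. Omp, the marker of mature olfactory neurons, had 0 counts in the hippocampus and 10 in the cortex at 5 days, and 0 to 3 in the others. Outside the comparison Omp reached 47 counts in the cortex at 3 weeks, against 2 after PBS. The summed list there was 12.7 CPM, the highest outside the comparison. In that library Scgb1c1 was at 9.78 CPM, against 0 in both 5-day libraries, while Obp2a was at 0.116 CPM. The sum at 3 weeks thus does not show a return of the odorant-binding protein reads of 5 days. The part of other tissue in these results was not tested, and in bulk RNA fewer cells of a type and less RNA per cell cannot be told apart.

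**Figure D1:**
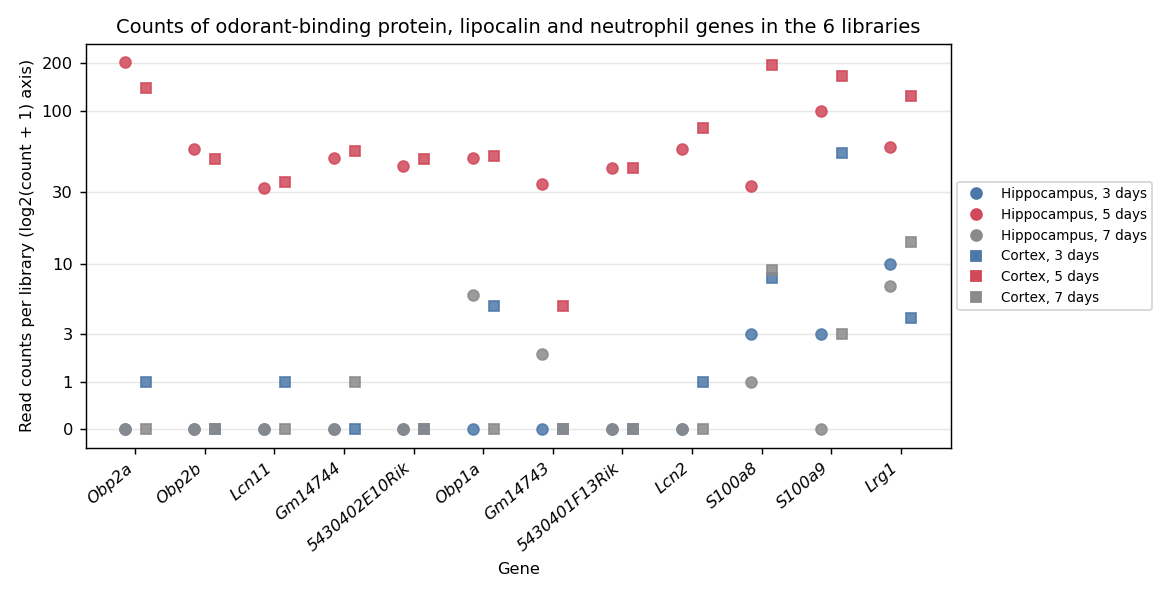
Read counts per library (y axis, log2(count + 1) spacing) of 12 genes (x axis) in the 6 libraries, with circles for hippocampus, squares for cortex and colour for the day. The 5-day points lie above the others for all 12 genes in their tissue, as for Obp2a with 202 and 139 counts against 0 or 1.

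Beside the odorant-binding proteins, 3 genes of neutrophils and of acute inflammation, S100a8, Lcn2 and Lrg1, were higher at 5 days. S100a8 and S100a9 encode the 2 chains of calprotectin, an abundant protein of neutrophils. S100a8 had 33 counts in the hippocampus at 5 days against 3 and 1, and 195 in the cortex against 8 and 9. The log2 fold change was 4.42 ± 0.53 (SE, adjusted p = 0.00241 in edgeR). S100a9 had 99 counts in the hippocampus against 3 and 0, and 165 in the cortex against 54 and 3. It did not pass over both tissues (adjusted p = 0.186), and the cortex at 3 days held most of the counts of the reference libraries. The groups of both genes did not overlap.

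Lcn2 had 57 counts in the hippocampus and 77 in the cortex at 5 days, and 1 count in the cortex at 3 days. The ratio was 299, with an interval of 52.7 to 11900 (adjusted p = 0.00261 in edgeR). Lrg1, which encodes a secreted leucine-rich glycoprotein that rises in inflammation, had 59 counts in the hippocampus against 10 and 7. In the cortex Lrg1 had 123 counts against 4 and 14 (3.41 ± 0.56, adjusted p = 0.0376 in edgeR). All libraries at 5 days were above all others for Lcn2 and Lrg1. Retnlg and Mmp8, genes of neutrophils and their granules, had 7 and 21 counts and 11 and 10 counts at 5 days and 0 in the other 4. That is at least 20.8-fold and at least 15.6-fold, with adjusted p of 0.657 and 0.704. Ngp and Camp, other granule genes of neutrophils, did not follow in both tissues and were both under the filter on low counts. Ngp had 6 counts in the hippocampus at 5 days against 4 and 0, and 4 in the cortex against 11 and 8. Camp had 0 counts in the hippocampus at all 3 times, and 5 in the cortex at 5 days against 0 and 0. These 4 genes were chosen after their values were seen.

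Of 14 genes of blood leukocytes in the files, 7 were tested and 1 passed, S100a8, against 0.075% of all genes. The list summed to 43.1 CPM in the hippocampus and 55.8 CPM in the cortex at 5 days, and to 6.65 to 15.6 CPM in the other 4. On the same scale S100a8 was at 6.07 CPM in the 5-day hippocampus and 23.8 CPM in the 5-day cortex. Its partner S100a9 was at 18.2 and 20.1 CPM. At 0 counts in both 5-day libraries were 4 of the 14 genes. The sum thus does not show a rise shared by the leukocyte genes. The T and B cell markers Cd3e and Ms4a1 were at 0 in all 6 libraries. Socs3, an inhibitor of cytokine signalling, was at 8.54 CPM in the hippocampus at 5 days against 1.04 and 1.95, and at 7.86 CPM in the cortex against 4.48 and 3.84 (adjusted p = 0.657). Cd14, a co-receptor for bacterial lipopolysaccharide, was at 2.14 CPM against 0 and 0.977 and at 9.46 CPM against 2.13 and 1.56 (adjusted p = 0.704). Of 34 genes of NF-kB and cytokine signalling, 22 were tested and none passed, with a median log2 fold change of 0.38. Il1b, Gfap and Aif1, markers of inflammation, astrocytes and microglia, had log2 fold changes of −1.0 ± 1.70, −0.08 ± 0.30 and −0.21 ± 0.35 with adjusted p of 0.955, 0.985 and 0.954. C1qa, C1qb and C1qc, the chains of the complement starter C1q made by microglia, had 0.57 ± 0.18, 0.67 ± 0.20 and 0.56 ± 0.23, with adjusted p of 0.657, 0.616 and 0.778, and each was highest at 5 days in both tissues. Of 22 tested genes of homeostatic microglia, none passed, 12 had a log2 fold change above 0 and the median was 0.05.

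Red blood cell genes had higher levels at 5 days without passing over both tissues. Hba-a1, an alpha globin gene, was at 1032 CPM in the hippocampus at 5 days against 723 and 549, and at 1524 CPM in the cortex against 805 and 550 (0.94 ± 0.19, adjusted p = 0.17). Hbb-bs and Hbb-b1 share nearly all reads, with a ratio of 0.984 to 0.993 between their counts, and are read as 1 gene. Of 11 red cell genes 8 were tested, and 8 had a log2 fold change above 0, against 47.8% of all genes. At 5 days 6 were highest in both tissues, against 12% of all genes. Hbb-bs and Hbb-bt of this list share 51.5% and 56.6% of the 75-base stretches of their transcripts. The globin genes are thus not all separate observations, which these shares do not take into account. The list summed to 2090 CPM in the hippocampus and 2905 CPM in the cortex at 5 days, and to 1263 to 1624 CPM in the others. The part of blood in the results on S100a8, S100a9 and Lcn2 was not tested.

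Genes of striatal and other forebrain neurons, Six3, Rarb and Tac1, were also higher at 5 days. Six3 encodes a homeodomain factor that patterns the anterior forebrain. Its counts were 150 in the hippocampus at 5 days against 22 and 27, and 527 in the cortex against 77 and 55. The log2 fold change was 2.96 ± 0.26 (adjusted p = 8.85e-05 in edgeR), with no overlap in either tissue. Rarb, a retinoic acid receptor of striatal neurons, had 86 counts in the hippocampus against 6 and 15, and 192 in the cortex against 32 and 38 (2.87 ± 0.39, adjusted p = 0.00764 in edgeR). Both genes were high at 5 days in each tissue.

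Tac1, the gene of substance P, had 914 counts in the cortex against 169 and 131, and 103 in the hippocampus against 67 and 39 (2.04 ± 0.34, adjusted p = 0.0376 in edgeR). For Penk, the gene of enkephalin, the level was 256 CPM in the cortex against 27.4 and 36.2, and 26.7 CPM in the hippocampus against 17.6 and 22.2 (adjusted p = 0.16). Drd1, the dopamine D1 receptor gene, was at 268 CPM in the cortex against 41.6 and 42.7, but at 24.9 CPM in the hippocampus, between 29.7 and 12.3.

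Of 18 tested genes of a striatum list, 3 passed, Rarb and Tac1 among them, against 0.075% of all genes. All 18 had a log2 fold change above 0, against 47.8% of all genes, with a median of 1.81. At 5 days 4 were highest in both tissues, against 12% of all genes. The median difference was 2.51 in the cortex and −0.10 in the hippocampus. The list summed to 2038 CPM in the cortex at 5 days against 397 and 332, and to 394 CPM in the hippocampus against 426 and 443. Outside the comparison the cortex sum was 862 CPM in PBS mice, 1643, 1502 and 1295 CPM after 8, 12 and 16 weeks, and 453 and 367 CPM after 3 and 20 weeks. Six3 had 60.6 CPM in that PBS cortex and 64.3 CPM in the 5-day cortex on the scale of total counts, and it reached 165 CPM in the cortex after 8 weeks. Drd2 and Gpr6 were at 0 in all 6 libraries. Adora2a, another gene of the list, chosen after its values were seen, had 306 counts in the cortex at 5 days against 13 and 11. In the hippocampus Adora2a had 0 counts at 5 days against 0 and 10. The part of neighbouring brain regions in the dissected cortex was not tested.

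**Figure D2:**
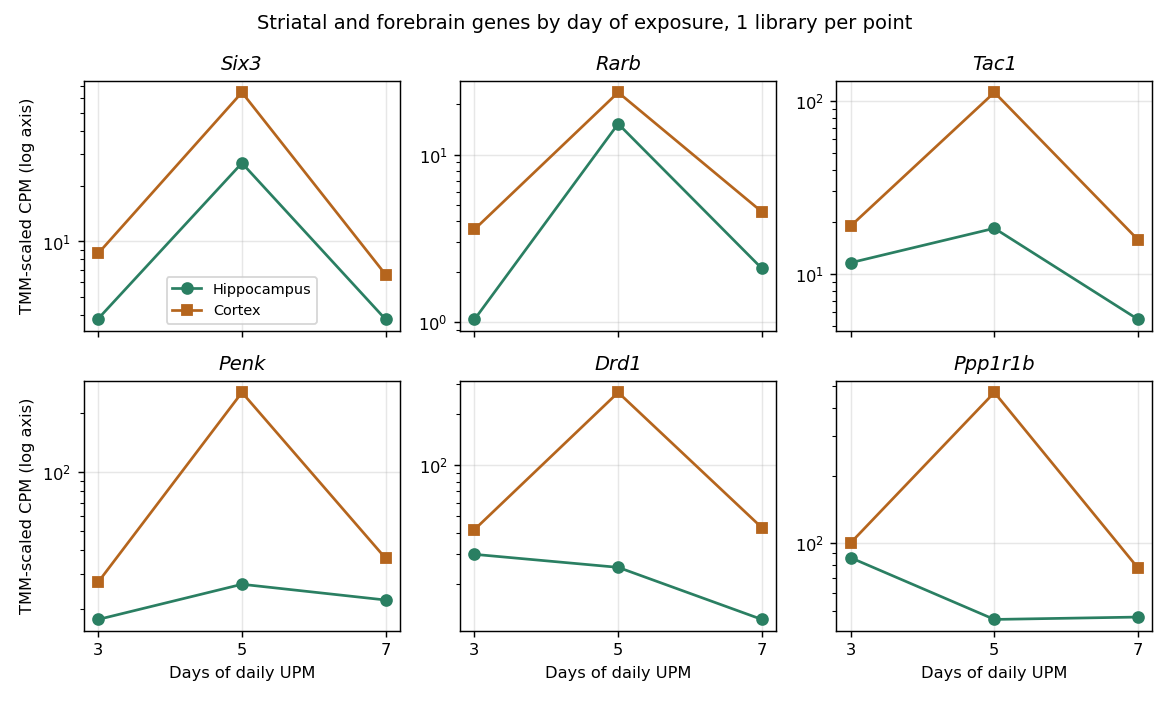
Level (TMM-scaled CPM, log axis) of 6 forebrain genes by day of dosing, 1 point per library, with hippocampus in green and cortex in brown. The cortex is highest at 5 days in all 6, as for Tac1 at 112 CPM against 18.9 and 15.7 CPM, while in the hippocampus Drd1 lies between its neighbours and Ppp1r1b is lowest.

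The 5-day difference itself differed between the tissues for 10 genes (interaction test of edgeR, 0.0681% of genes tested). For 5 of them (0.0341%) the cortex had the higher value of the difference, Lrrc10b, Syndig1l, Ppp1r1b, Rasd2 and Penk. All 5 are members of the striatum list, which holds 18 of the 14676 genes tested. Ppp1r1b, which encodes DARPP-32, was at 469 CPM in the cortex at 5 days against 100 and 77.4, and at 45.8 CPM in the hippocampus against 86.1 and 46.9. The difference, hippocampus minus cortex, was −2.93 ± 0.46 (adjusted p = 0.0169). The other 5 (also 0.0341%), with the higher value in the hippocampus, were Dlk1, C1ql2, Zic1, Ptgds and Calb2. Dlk1 was at 148 CPM in the hippocampus at 5 days against 27.5 and 12.6, and at 7.37 CPM in the cortex against 28.2 and 29.9 (4.88 ± 0.57, adjusted p = 0.00234). Zic1, a factor of septal and thalamic neurons and of meninges, was at 65.3 CPM in the hippocampus against 6.92 and 4.88, and at 8.97 CPM in the cortex against 17.9 and 10.4 (4.13 ± 0.63, adjusted p = 0.014). Dlk1 and Zic1 were also high in hippocampus libraries outside the comparison, with Dlk1 at 159 CPM after PBS and Zic1 at 76.5 CPM in 1 library of weeks.

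**Figure D3:**
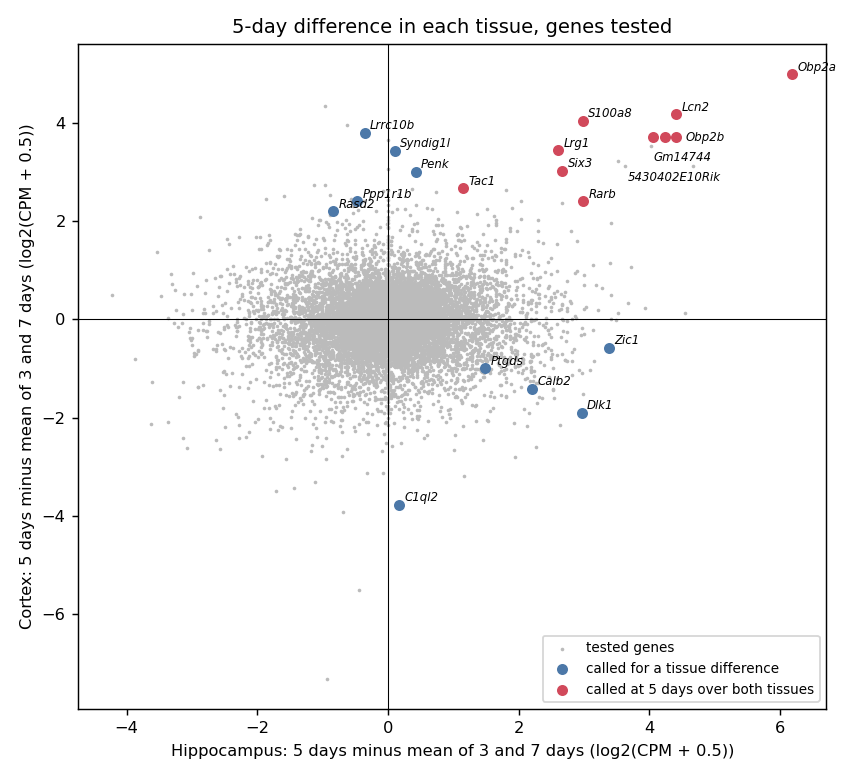
Difference of the 5-day library from the mean of the 3-day and 7-day libraries, log2(CPM + 0.5), in hippocampus (x axis) and cortex (y axis) for the genes tested (grey). Red points are genes called over both tissues, at the upper right, and blue points are the 10 genes whose difference differed between the tissues, off the diagonal.

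Other groups were described from lists by their counts and medians, beside those of all genes (median −0.02). Of 27 tested genes induced by glucocorticoids, 1 passed (Lcn2), against 0.075% of all genes. Lcn2, described above, passed the filter on low counts only through the 5-day libraries and is also on other lists. Its call is thus no separate support for this list. At 5 days 13 of the 27 were highest in both tissues, against 12% of all genes, with a median of 0.41. Mt2, a metal-binding metallothionein, was at 554 CPM in the hippocampus at 5 days against 377 and 351, and at 410 CPM in the cortex against 206 and 282 (0.68 ± 0.17, adjusted p = 0.33). Fkbp5, a co-chaperone of the glucocorticoid receptor, was at 39.7 CPM in the hippocampus against 27.8 and 30.8, and at 28.1 CPM in the cortex against 8.62 and 18.1 (0.76 ± 0.29, adjusted p = 0.704). Of 19 tested genes of endothelium, none passed, 11 had a log2 fold change above 0 and 8 below, and the median was 0.17. At 5 days 7 were highest in both tissues, against 12% of all genes, among them Ly6a with 1.28 ± 0.29 (adjusted p = 0.298) and Ly6c1 with 0.76 ± 0.22 (adjusted p = 0.562). Cldn5, a tight junction gene of the list, had −0.42 ± 0.34 (adjusted p = 0.883) and was at 7.00 CPM in the cortex at 5 days against 9.97 and 13.6. None of 30 tested genes of the NRF2 and antioxidant list passed, with a median of −0.02. Hmox1 and Nqo1, its classical members, had 1.45 ± 1.44 and −1.27 ± 0.69 with adjusted p of 0.903 and 0.826.

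Single genes of neuronal activity and of synapses had lower levels at 5 days, and none passed. Egr1, an immediate early transcription factor, was at 98.6 CPM in the hippocampus at 5 days against 194 and 135, and at 157 CPM in the cortex against 320 and 260 (−0.81 ± 0.19, adjusted p = 0.316). Nr4a1, an early-response nuclear receptor, was at 15.3 CPM against 52.0 and 35.9 and at 22.5 CPM against 34.6 and 40.6 (−1.10 ± 0.27, adjusted p = 0.331). Of 31 tested immediate early genes, 12 had a log2 fold change above 0 and 6 were lowest at 5 days in both tissues, against 47.8% and 12.6% of all genes, with a median of −0.24. Their mean level at 5 days, on the log2 scale against the mean of the 3 libraries of the tissue, was 0.04 in the hippocampus and −0.21 in the cortex. Of 24 genes of synaptic vesicles, 8 were above 0 and 12 were lowest in both tissues, with a median of −0.27. Pclo, an active zone scaffold, had −0.68 ± 0.18 (adjusted p = 0.52) and Slc17a7, the vesicular glutamate transporter, −0.47 ± 0.17 (adjusted p = 0.704). Lrriq1, whose adjusted p of 0.0564 was the smallest on the lower side, had 1 count in the hippocampus at 5 days against 53 and 49, and 40 in the cortex against 217 and 186.

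**Figure D4:**
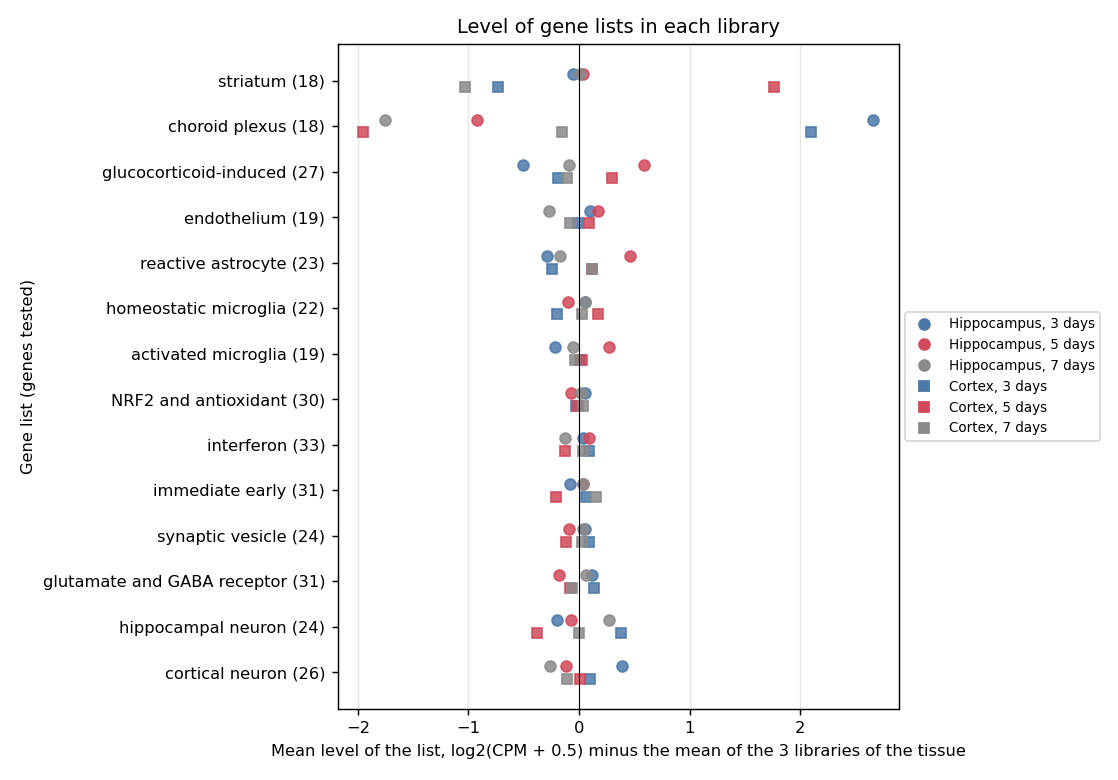
Mean level of gene lists in each of the 6 libraries, as log2(CPM + 0.5) minus the mean of the 3 libraries of the same tissue (x axis), with the number of tested genes in brackets. Lists that lost many genes to the filter on low counts are left out. At 5 days the striatum list lies at 1.76 in the cortex and 0.04 in the hippocampus, and the choroid plexus list at 2.66 and 2.10 at 3 days.

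Pairs of times showed which neighbour a difference came from, and all of these pairs share libraries. Against 3 days, 22 genes were called (0.15%), 6 higher (0.0409%) and 16 lower (0.109%). Of the 16, 10 are on the list of the choroid plexus, the secretory epithelium that makes cerebrospinal fluid. The choroid plexus list makes up 18 of the 14676 genes tested. Enpp2, which encodes autotaxin, was at 1521 CPM in the hippocampus at 3 days, 234 at 5 days and 131 at 7 days. In the cortex Enpp2 was at 1292, 250 and 318 CPM (5 against 3 days −2.56 ± 0.28, adjusted p = 0.000252 in edgeR). Sostdc1 had −3.55 ± 0.39, Kl −3.07 ± 0.39, Folr1 −6.08 ± 0.84 and F5 −4.91 ± 0.75, with adjusted p of 0.000252, 0.00112, 0.00265 and 0.00747. Ttr, the most abundant of the 18 genes, was at 6205, 182 and 19.0 CPM in the hippocampus and at 3816, 7.86 and 462 CPM in the cortex, and was not called. The 7-day libraries were low too, as 4 genes were called between 7 and 3 days (0.0273%), Enpp2, Folr1, Clic6 and Sostdc1, all lower. Over both neighbours together, none of 18 choroid plexus genes passed, with a median log2 fold change of −3.65 and the highest levels at 3 days. The summed level of the list was 482 CPM in the hippocampus and 271 CPM in the cortex at 5 days, 8142 and 5351 CPM at 3 days, and 182 and 851 CPM at 7 days. Outside the comparison the hippocampus sum was 201 CPM after PBS and 574 to 6666 CPM after 3 to 20 weeks. In the cortex it was 1791 CPM after PBS and 287 to 2415 CPM after 3 to 20 weeks. The part of choroid plexus in the dissected tissue was not tested.

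Against 7 days, 11 genes were called, all higher (0.075%). They included Obp2a, Six3, Rn4.5s, S100a9, Tac1, S100a8, Hba-a1, Lcn2, Hbb-bs and Hbb-b1. Rn4.5s, a small noncoding RNA, had 3997 counts in the hippocampus at 5 days against 2388 at 3 days and 1500 at 7 days, and 4001 in the cortex against 2732 and 1537 (5 against 7 days 1.59 ± 0.20, adjusted p = 0.00122). Hba-a1 had 1.20 ± 0.21 (adjusted p = 0.0342). Against 3 days the higher genes included Obp2a, Six3, Rarb, S100a8 and Lcn2. Obp2a, Six3, S100a8 and Lcn2 passed against each of the 2 neighbours, which share the 5-day libraries.

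**Figure D5:**
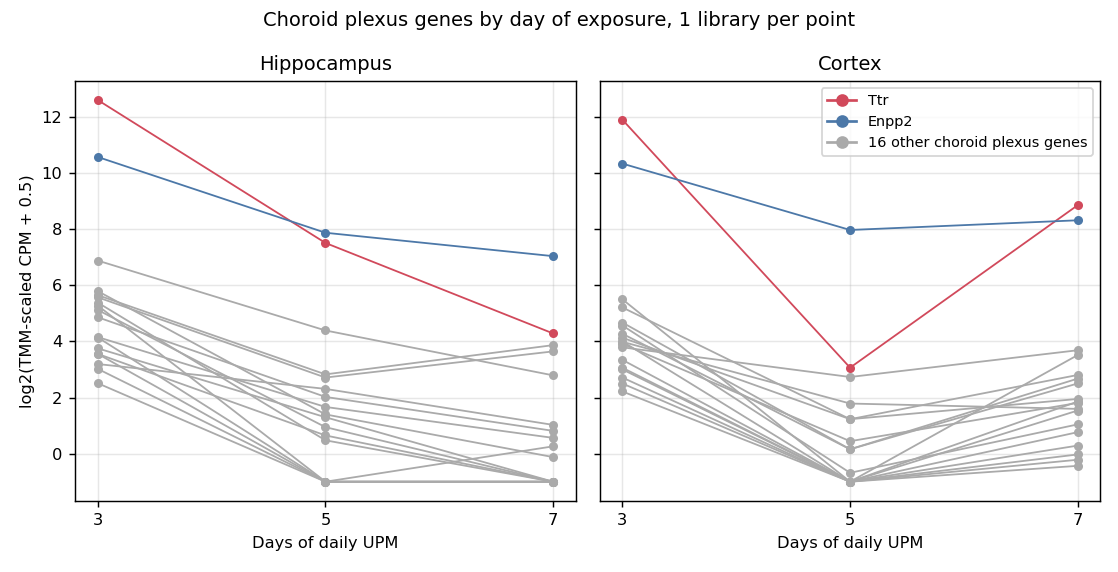
Level of the 18 choroid plexus genes, log2(TMM-scaled CPM + 0.5), by day in hippocampus (left) and cortex (right), 1 point per library. The 3-day library is highest for 18 of 18 genes in each tissue, with Ttr going from 6205 to 182 and 19.0 CPM in hippocampus and from 3816 to 7.86 CPM in cortex before 462 CPM at 7 days.

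The place of the 5-day library was also counted without a test. It was the highest of the 3 libraries in both tissues for 1764 genes (12%) and the lowest for 1843 (12.6%). At a gap of at least 2-fold from both others in both tissues, 47 genes were higher (0.32%) and 42 lower (0.286%). Grrp1 was at 10.5 CPM in the hippocampus against 1.21 and 0.977, and at 11.3 CPM in the cortex against 2.58 and 3.24 (adjusted p = 0.144). Ier3, an early-response gene, was at 17.3 CPM against 5.88 and 5.86, and at 25.4 CPM against 7.05 and 12.4 (adjusted p = 0.23). On the lower side, Cspg4, a proteoglycan of oligodendrocyte precursors and pericytes, was at 3.20 CPM against 15.0 and 7.95, and at 4.05 CPM against 9.29 and 8.16 (adjusted p = 0.646). Kit, a receptor tyrosine kinase, had −1.20 ± 0.29 (adjusted p = 0.331), and Myd88, an adaptor of Toll-like receptors, had −1.51 ± 0.56 (adjusted p = 0.704). Ddi2 and Rsc1a1 overlap on chromosome 4 and had 6 and 2 counts in the hippocampus at 5 days against 44 to 66, so their reads cannot be told apart (adjusted p = 0.23 and 0.186).

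Leaving out 1 library moved the number of called genes from 11 to between 4 and 46. Without the cortex library of 5 days, 4 genes were called and Obp2a was the one shared with the 11. Six3 then had an adjusted p of 0.0831 and S100a8 one of 0.572. Without the hippocampus library of 5 days, Obp2a, Six3, S100a8 and Tac1 remained among 18 genes. In limma-voom 5 of the 11 lost their calls, with adjusted p of 0.0723 for Obp2b, 0.0816 for 5430402E10Rik, 0.0995 for Gm14744, 0.0763 for Lcn2 and 0.0647 for Lrg1. Obp2b and 5430402E10Rik also lost them in DESeq2 (adjusted p = 0.83 and 0.842).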

How the data were processed

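Hippocampus and cortex RNA was sequenced with a 3' mRNA kit as single-end reads of 75 bases, per the labels' protocols. The authors deposited unnormalized counts of reads for each gene symbol, 1 library per file. The submitters' processing notes name Bowtie2, bedtools and edgeR and the build mm10. Their versions, the annotation, strandedness and how reads that map to several places were handled are not given in the sources used here. 3' counts are per transcript end, so levels were compared between samples and not between genes.

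Counts of repeated symbols were summed, and 27 gene names that read as dates in both 8-week files took the names on the same lines of the other files. The 6 libraries of 3, 5 and 7 days were scaled with TMM, filtered with filterByExpr on tissue and class (14676 genes kept) and fitted in edgeR 4.0.16 (R 4.3.3). Its quasi-likelihood F test had tissue as covariate and 3 residual degrees of freedom. Standard errors were the log2 fold change over the root of F. The difference between tissues was an interaction, and pairs of times were contrasts of a time factor. DESeq2 1.42.0 and limma 3.58.1 (voom) were alternatives, as were scaling, filters, a fold limit, the 3-week libraries as reference, a time block, and leaving out each library. Scripts were tested on simulated data. Ratios of genes at 0 to 3 reference counts carry 95% exact intervals or a floor of 3 counts, which cover counting error only. One count equals 0.112 to 0.184 CPM.

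Named genes were the 12 with the largest change among called genes with a mean of at least 5 CPM, the 12 with the smallest p where fewer than 5 were called, the 12 with the largest gap from the nearer neighbour with at least 50 counts, and 3 per list of 44 lists, with the list of key genes. In the tissue difference and pairs of times they were the 6 largest called changes in each direction. Genes outside this rule were chosen after their values were seen, among them 5430402E10Rik, Lcn11, Gm14743, 5430401F13Rik, Mup4, Scgb3a1, Retnlg, Mmp8, Bpifa1, Omp, Rn4.5s, Hbb-b1, Ddi2, Rsc1a1, Dsp and Fibcd1. The libraries and lists were chosen with earlier results of these data known. Promoters came from RefSeq (GRCm38.p6) and positions from GENCODE M21, which gave 1 position for most named genes. One called gene is counted but not reported here.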

Additional observations from a re-analysis of the deposited data

Results flagged for a closer look

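The 5-day difference differed between hippocampus and cortex for 10 genes in the interaction test of edgeR. The difference of log2 changes, hippocampus minus cortex, was 4.88 for Dlk1, 4.13 for Zic1, 3.65 for Calb2 and 2.51 for Ptgds. It was 8.71 for C1ql2, which had 0 counts in the cortex at 5 days, so that this value depends on the prior count of the fit. On the other side it was −4.32 for Lrrc10b, −3.41 for Syndig1l, −3.10 for Rasd2, −2.93 for Ppp1r1b and −2.59 for Penk.

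Some genes named for the 5-day libraries also had reads in libraries outside the comparison, above 3 counts where the PBS library of the tissue had 3 or fewer. Lcn2 had 5 counts in the hippocampus at 3 weeks. S100a8 had 13, 6 and 21 counts in the hippocampus at 3, 16 and 20 weeks, against 2 in the PBS library. In the cortex S100a8 had 18 counts at 3 weeks and 5 at 16 weeks, against 1 in the PBS library. S100a9 had 8, 4, 13 and 80 counts in the hippocampus at 3, 12, 16 and 20 weeks, against 0 in the PBS library and 99 at 5 days. Retnlg had 4 counts in the hippocampus at 16 weeks and 4 in the cortex at 8 weeks, against 1 and 0 after PBS. Ngp had 8 and 16 counts in the hippocampus at 16 and 20 weeks and 11 in the cortex at 3 weeks, and Camp had 4, 4 and 26 in the hippocampus at 3, 16 and 20 weeks and 9 in the cortex at 3 weeks, all against 0 after PBS. Il1b had 12, 4 and 4 counts in the cortex at 8, 12 and 20 weeks, against 1 after PBS. Folr1, a choroid plexus gene, had 15, 71, 25, 62 and 65 counts in the hippocampus from 3 to 20 weeks, against 1 after PBS. Omp reached 6 counts in the hippocampus and 47 in the cortex, both at 3 weeks, against 0 and 2 after PBS. Bpifa1 had 4 counts in the cortex at 3 weeks, against 3 after PBS.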

How the results depend on the processing

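The 11 genes called at 5 days stayed 11 under RLE scaling, total counts and counts without Rn45s, Akap5 and Lrrc17, the same 11 genes each time. DESeq2 called 30, a fit without a filter 110, a mean of at least 50 counts 4, exposure time as a random block 31 (consensus correlation −0.236), and a fit without the marker lists, which removes some called genes, 6. In the cortex alone 133 genes were called and in the hippocampus alone 28, both chosen after seeing the data, where 1 library against 2 gives 1 residual degree of freedom. Leaving out 1 library gave 4 to 46. The number of gene lists with at least 1 called gene, 8 without the key genes, became 1 to 12. The tissue difference, 10 genes, gave 17 in DESeq2, 56 without a filter, 4 at a mean of 50 counts and 15 to 141 without 1 library, which leaves 1 residual degree of freedom. Against 3 days, 22 genes became 9 with total counts, 11 in limma-voom, 101 without a filter, 6 at a mean of 50 and 11 to 130 without 1 library. Against 7 days, 11 became 18 in DESeq2, 59 without a filter, 4 at a mean of 50 and 6 to 101 without 1 library. For 7 against 3 days, 4 became 1 with total counts, 12 in DESeq2, 51 without a filter, 1 at a mean of 50 and 1 to 115 without 1 library. At a gap of 1.5-fold, 146 genes were higher and 155 lower in place of 47 and 42. The cause of these differences was not tested.

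Changes of sign touched genes that were not called over both tissues. In the cortex alone the log2 fold change was 0.34 for Aif1, −1.52 for Calb2, −1.98 for Dlk1, 0.17 for Il1b, −1.03 for Ptgds and −0.66 for Zic1. In the hippocampus alone it was 0.18 for C1ql2, 0.52 for Gfap, −0.41 for Lrrc10b, −0.52 for Ppp1r1b and −0.90 for Rasd2. With the 3-week libraries added it was 0.03 for Gfap. Leaving out 1 library, it ranged from −5.40 to 4.74 for Adora2a, −0.89 to 0.34 for Aif1, −8.62 to 0.16 for C1ql2, −1.53 to 2.12 for Calb2, −1.98 to 2.90 for Dlk1 and −0.79 to 0.51 for Gfap. The range was −5.51 to 0.17 for Il1b, −0.42 to 3.90 for Lrrc10b, −0.53 to 2.40 for Ppp1r1b, −1.03 to 1.48 for Ptgds, −0.91 to 2.19 for Rasd2 and −0.66 to 3.48 for Zic1. In each of these the sign turned without 1 of the 5-day libraries, and for Gfap and Il1b also without the cortex library of 7 days. No analysis paired by animal was possible because the labels give no replicate numbers and each tissue and time has 1 library. Tissue was a term of the fit, and the fit with exposure time as a block is the one given above with 31 genes. Depth limits genes with few counts, since 1 count equals 0.112 to 0.184 CPM.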

Other observations

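Several lists not described above had values without a called gene. Of 76 tested genes of oxidative phosphorylation, 61 had a log2 fold change above 0, against 47.8% of all genes, and the median was 0.09. By tissue the median difference was −0.06 in the hippocampus and 0.25 in the cortex. Of 77 genes of ribosomal proteins, 54 were above 0, with a median of 0.06 over both tissues, −0.05 in the hippocampus and 0.20 in the cortex. Of 19 oligodendrocyte genes, 15 were above 0, with a median difference of 0.74 in the hippocampus and −0.08 in the cortex. Genes of the leptomeninges summed to 1931 CPM in the hippocampus at 5 days against 973 and 608 CPM, and to 1422 CPM in the cortex against 2312 and 3520 CPM. Of 24 genes of hippocampal neurons, 6 were above 0, with a median of −0.39.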
